A study of Rattus norvegicus with 6 samples.

Results

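The comparison described here sets cultured rat hippocampal neurons after 12 h of insulin against the control culture. It covers 6641 genes of 37183 symbols in the deposited table: those measured in both libraries that reached 1 FPKM (fragments counted per kilobase of transcript and scaled to sequencing depth) in either one. Each gene's difference is its log2 level at 12 h minus its log2 level in the control, so a difference of 1 is a 2-fold higher level. Of the 6641 genes, 159 (2.39%) were at least 2-fold higher at 12 h and 96 (1.45%) at least 2-fold lower. A gene under 1 FPKM in the control entered only through its 12 h level, and the reverse, which favours differences in that direction. Of genes named below, Cd44, Lgals3, S100a10, Csf1, Irf1, Nfkb2, Chordc1 and Hspe1, among others, entered through 12 h. Npy, Thy1, Kcna1 and Dll4, among others, entered through the control.

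The series measured RNA of primary rat hippocampal neurons and, separately, primary hippocampal astrocytes by sequencing, each as a control and after 6 h and 12 h of 200 nM insulin, in connection with insulin and lipid metabolism in brain cells. Each of the 6 groups has 1 library, so there is no replicate error, and no test was made. Below, "rose" and "fell" are used only of genes that reached the 2-fold size, and for all other genes the values are given. The neuron cultures were grown without serum in Neurobasal medium with 1% B27, a supplement that contains insulin, and 4 h before treatment the medium was replaced by Neurobasal with 1% B27 lacking insulin. The control is called saline in its title and untreated at 0 min in its characteristics, and no library of saline-treated neurons at 12 h was used here. The 12 h library therefore differs from the control both in insulin and in 12 h more in the changed medium, and these cannot be told apart. The animals' strain and age and the number of cultures behind each library were not given in the sources used here.

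Insulin binds a receptor tyrosine kinase on neurons and glia and acts through PI3K and AKT, which keep FoxO transcription factors out of the nucleus and favour protein and lipid synthesis. Hippocampal interneurons release GABA together with neuropeptides such as somatostatin and neuropeptide Y, whose genes are regulated by activity and by cyclic AMP. Glia in culture respond to stress with intermediate filaments, chemokines and heat-shock proteins, which refold or clear damaged proteins.

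The 3 neuron-labelled libraries had a value for 23927 (control), 25510 (6 h) and 25528 (12 h) symbols, and all were given the same distribution of values by the authors. Over all 6641 genes the 12 h median difference was 0.14 and the 6 h median 0.13, and the main list medians are therefore also given relative to 0.14. Above 0 lay 66.1% of all genes, while 10.7% were at least 1.5-fold higher and 2.39% at least 2-fold higher. At least 1.5-fold lower were 4.17%, and 1.45% were at least 2-fold lower. Counts of list members below are to be read against these shares. The lists were chosen with earlier results of these data known, so the counts describe the lists and test nothing. With 0.14 subtracted, 9 of the 44 named genes at 2-fold no longer reached it, namely Armcx1, COX1, Ccne2, Chordc1, Cntf, Icam1, Igfbp7, Rps15al2 and Tagln2, with values from 0.86 to 0.99; "rose" refers for these to the deposited scale without that subtraction. The share of 2-fold calls that were higher was 62.4% as deposited and 45.0% when the all-gene median was subtracted first, with 109 genes higher and 133 lower. The 18S and 28S ribosomal RNA rows, Rn18s and Rn28s, fell by 5.65 and 3.65 on the log2 scale, and their part in the results was not tested. The depth of the libraries is unknown. The 1st to 99th percentile of the differences ran from -1.15 to 1.31.

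The label was checked against cell type markers. Neuronal genes were well expressed: Tubb3, a neuronal tubulin, stood at 30.0, 32.5 and 33.7 FPKM (3 values are always given in the order control, 6 h, 12 h), and Dlx1, an interneuron transcription factor, at 11.6, 11.0 and 10.1 FPKM. The vesicular glutamate transporter genes Slc17a7 and Slc17a6 were at or below 0.00378 FPKM in all 3 libraries, and 13 listed glutamatergic markers summed to 1.53, 1.74 and 1.63 FPKM. Glial genes were abundant too: mature astrocyte markers summed to 1066, 1075 and 1093 FPKM and oligodendrocyte precursor markers to 154, 145 and 146 FPKM, against 168, 169 and 135 FPKM for 26 pan-neuronal markers. The highest single value in the mature astrocyte list was 832 FPKM, so that sum rests largely on a single gene. The sums therefore do not measure shares of cells. The libraries labelled neuron therefore hold interneuron, astrocyte and oligodendrocyte-lineage transcripts, and hallmark genes of excitatory hippocampal neurons were near 0. Microglial markers summed to 2.85, 3.55 and 4.33 FPKM, with Cx3cr1 at 0.00985 FPKM before treatment, at 0.00516 FPKM after 6 h and blank after 12 h. The 10 endothelial markers summed to less than 0.4 FPKM in every neuron-labelled library.

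Neuropeptide and granin genes included the largest differences downward among the neuronal lists. Of 22 listed, 10 were compared and 12 stayed under 1 FPKM; 3 fell, 1 more was at least 1.5-fold lower, and 8 lay below 0, beside backgrounds of 1.45%, 4.17% and 33.9% of all genes at those sizes. Sst, which encodes somatostatin, measured 154, 122 and 48.5 FPKM, a 12 h difference of -1.66. Npy, encoding neuropeptide Y, was at 2.40, 1.74 and 0.358 FPKM, a difference of -2.75. Scg2, encoding secretogranin II, a protein of the dense-core vesicles that store neuropeptides, was at 34.2, 35.0 and 15.2 FPKM, a difference of -1.17. Sst and Npy were lower at 6 h than in the control and lower again at 12 h, whereas Scg2 was within 0.03 of the control at 6 h on the log2 scale. Cort, which encodes the somatostatin relative cortistatin and was chosen after its values were seen, stood at 4.77, 3.67 and 0.972 FPKM.

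The other compared members of the list moved less. Penk, the precursor of the enkephalins, went from 5.53 to 3.22 FPKM, a difference of -0.78. The granins Chga and Chgb differed by -0.57 and -0.34, and Vgf, a granin-like precursor, by -0.34. Cck, the cholecystokinin gene, was nearly level at 3.84, 4.08 and 4.14 FPKM. The median over the 10 was -0.46, which is -0.60 relative to all genes, and the same 10 genes had a median of -0.06 at 6 h. In bulk RNA, fewer cells of a type and less RNA per cell cannot be told apart, which applies to every cell-type gene below.

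Promoter sequences of the neuropeptide genes were searched for the cyclic AMP response element, a palindrome bound by CREB, because Sst is a textbook CREB target; this motif was chosen after the values were seen. The windows run from 250 bases before to 50 bases after the annotated start in RefSeq for the rat assembly GRCr8, and the motif searched was TGACGTCA, which reads the same on both strands. It was found in 1.91% of 27457 windows, in 168 of 3967 compared genes with a window, and in 3 of 7 neuropeptide and granin genes with one. These were Sst (chr11:90461488-90461567 on the plus strand), Scg2 (chr9:88256970-88257049 on the minus strand) and Vgf (chr12:25277091-25277170 on the minus strand). The stretch around each is shown 5′ to 3′ along the gene, with the motif in capitals, since Sst and Scg2 fell and Vgf did not. Npy fell too, and its window did not hold the motif.
Sst: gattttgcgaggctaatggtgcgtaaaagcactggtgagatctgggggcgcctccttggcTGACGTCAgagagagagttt
Scg2: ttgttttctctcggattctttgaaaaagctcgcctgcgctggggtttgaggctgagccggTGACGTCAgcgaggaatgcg
Vgf: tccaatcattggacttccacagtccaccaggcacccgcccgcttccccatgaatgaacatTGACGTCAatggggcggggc
Over the 168 compared genes whose window holds the motif, the median difference was 0.10, against 0.13 for those without it, and 2 of the 168 fell. A match of letters is a description and shows no binding.

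GABAergic interneuron genes were all below 0. Of 23 listed genes 22 were found and 13 compared. Sst and Npy fell and 4 were at least 1.5-fold lower, beside 1.45% and 4.17% of all genes. All 13 lay below 0, beside 33.9% of all genes. Gad1, which encodes a GABA-synthesising enzyme, was at 5.78, 5.38 and 3.38 FPKM, a difference of -0.77. Gad2, the other such enzyme, was at 1.56, 1.56 and 1.09 FPKM. Slc32a1, the vesicular GABA transporter, was at 21.7, 17.2 and 15.1 FPKM. For Gad1 and Gad2 most of the difference lay between 6 h and 12 h, and for Slc32a1 between the control and 6 h. The transcription factors that define these cells differed by less: Lhx6 by -0.60, Dlx2 by -0.26 and Dlx1 by -0.20. The list's summed level was 228, 189 and 105 FPKM, of which Sst alone gave 154, 122 and 48.5 FPKM. The list's median difference was -0.46, or -0.60 relative to all genes.

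Genes shared by all neurons split into lower and level groups. Of 26 pan-neuronal genes listed, 19 were compared and 6 stayed under 1 FPKM in all 3 libraries. Thy1 and Scg2 fell, 4 were at least 1.5-fold lower and 5 lay above 0, beside 1.45%, 4.17% and 66.1% of all genes. Thy1, a surface glycoprotein of mature neurons that fibroblasts also carry, was at 2.48, 2.07 and 0.790 FPKM, a difference of -1.65. Nefl, the light neurofilament chain, was at 14.7, 13.7 and 7.33 FPKM and, at -0.999, lay just short of the 2-fold size. Eno2, the neuronal enolase, went from 8.26 to 5.03 FPKM, a difference of -0.71, and Nefm from 3.02 to 2.11 FPKM. By contrast Tubb3 differed by 0.17, Dcx, a microtubule protein of young neurons, by 0.37, and Map2, a dendritic microtubule protein, by -0.04. The median over the 19 was -0.10, or -0.24 relative to all genes, and -0.01 at 6 h.

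Presynaptic genes were mostly below 0 at 12 h without reaching 2-fold. Of 32 listed, 15 were compared and none rose or fell. Of the 15, 2 were at least 1.5-fold lower and 13 lay below 0, beside 4.17% and 33.9% of all genes. The median was -0.30, or -0.44 relative to all genes, and -0.11 at 6 h. Cplx1, encoding complexin, a clamp of vesicle fusion, was at 3.42, 3.10 and 1.82 FPKM, a difference of -0.91. Syp, the vesicle protein synaptophysin, was at 4.48, 3.88 and 2.72 FPKM, a difference of -0.72. In both genes the 12 h level was the lowest of the 3 and the 6 h level was close to the control. Syn1, which encodes synapsin, went the other way, from 1.09 to 1.59 FPKM, a difference of 0.54.

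Few genes for receptors and channels were expressed high enough to compare. Of 30 glutamate and GABA receptor subunit genes 27 stayed under 1 FPKM; of the other 3, Grin1, an NMDA receptor subunit, differed by -0.62, Gabbr1 by -0.07 and Gria2 by 0.00. Of 31 channel genes listed 6 were compared, and Kcna1, a voltage-gated potassium channel, fell from 1.26 and 1.27 to 0.566 FPKM. Its relative Kcna2 was level, at 7.69, 8.25 and 7.98 FPKM. The 5 compared postsynaptic scaffold genes, Dlg4 among them, differed by -0.11 to 0.11.

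Growth cone genes and the transcription factors of young neurons stayed nearer to the all-gene median. Of 21 growth cone and microtubule genes compared, none reached even 1.5-fold, and the median was 0.04, which is -0.10 relative to all genes, so its sign depends on the centring. Stmn2, a tubulin-binding stathmin of growing axons, was at 3.41, 3.11 and 2.61 FPKM, and Marcksl1 at 84.4, 89.8 and 105 FPKM. The median over 14 neuronal transcription factors was 0.06, or -0.08 relative to all genes.

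**Figure D1:**
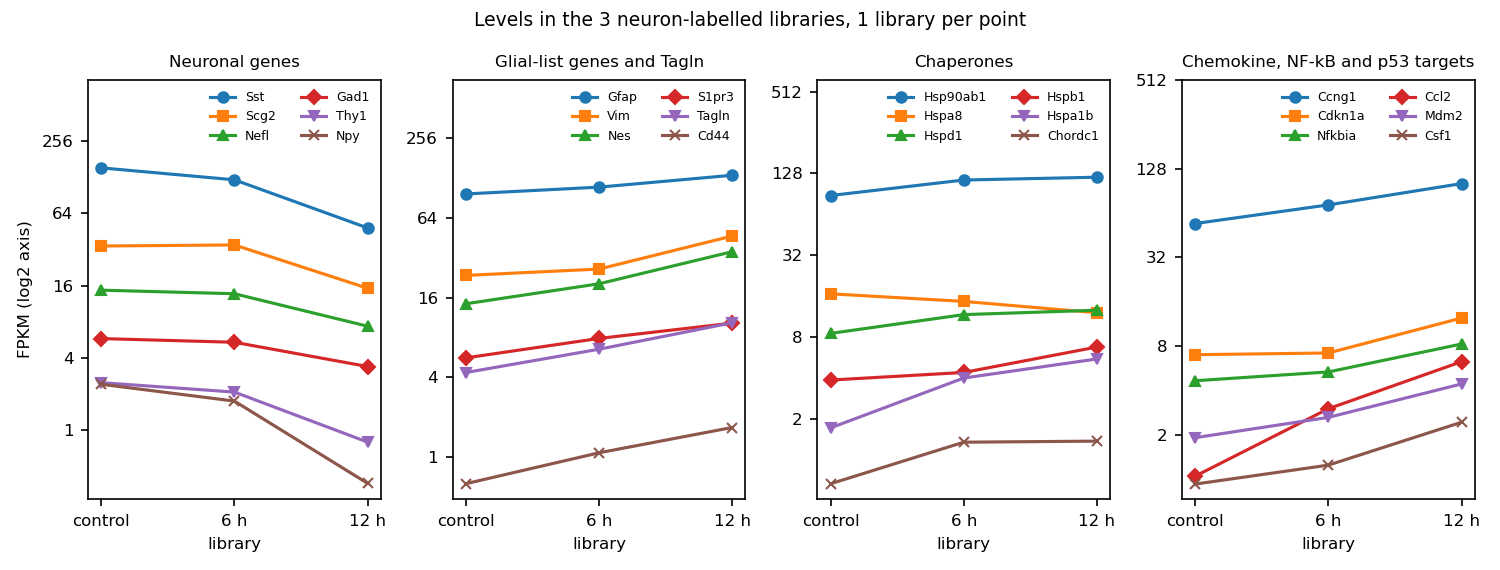
FPKM (log axis) of named genes in the control, 6 h and 12 h neuron-labelled libraries, 1 library per point, by group. Sst, Npy and Scg2 are lowest at 12 h, and Ccl2, Nes and Hspa1b highest at 12 h.

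Outside ribosomal RNA, the largest difference of a named gene was in Dll4, a Notch ligand, which was at 5.75, 0.536 and 0.282 FPKM, a difference of -4.35. It was also lower at 12 h in the astrocyte-labelled culture, at 2.07 and 0.328 FPKM, so this difference was not confined to the neuron-labelled culture. Hes1, a Notch target, was at 2.38, 3.23 and 4.70 FPKM, a difference of 0.98. Other Notch genes at 1 FPKM or more differed less: Hey1 by 0.15, Notch1 by 0.28 and Dll1 by -0.04. Jag1 (0.90), Hey2 (0.38) and Dll3 (0.04) stayed under 1 FPKM. Dolpp1 (109, 30.4 and 36.0 FPKM), Arhgef40 (6.50, 2.06 and 2.18 FPKM) and Rpl35a (6.77, 2.66 and 3.03 FPKM) fell as well, and like Dll4 were already 2-fold lower at 6 h. Grcc10 fell later, with 15.5, 11.7 and 4.64 FPKM. Rpl35a belongs to a family with many near-identical pseudogenes, so its value is uncertain.

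Histone genes formed a further lower group, chosen after their values were seen. Of 29 compared genes with Hist symbols 4 fell, 11 were at least 1.5-fold lower and 27 lay below 0. Over all genes these shares were 1.45%, 4.17% and 33.9%. The histone median was -0.49 at 12 h, or -0.63 relative to all genes, and -0.25 at 6 h. Hist1h1a, a linker histone, was at 10.7, 8.01 and 5.26 FPKM, and Hist1h2ak at 42.2, 30.4 and 21.0 FPKM. Hist3h2a, at 63.4, 46.0 and 33.3 FPKM, differed by -0.93. These genes are near-identical copies, and reads may be split between them. In the astrocyte-labelled culture 26 histone genes had a median of 0.08.

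Genes of reactive astrocytes were mostly higher. Of 21 listed, 10 were compared and 11 stayed under 1 FPKM. Of the 10, 3 rose, 6 were at least 1.5-fold higher and 9 lay above 0, beside 2.39%, 10.7% and 66.1% of all genes. Nes, encoding the intermediate filament nestin, was at 14.4, 20.3 and 35.5 FPKM, a difference of 1.30. Nestin also marks neural progenitors, and all 6 compared genes of the radial glia and progenitor list lay above 0, with a median of 0.32, or 0.18 relative to all genes; their part in the nestin difference was not tested. Cd44, a hyaluronan receptor, was at 0.632, 1.08 and 1.68 FPKM, and Lgals3, a galectin, at 0.642, 0.960 and 1.92 FPKM. All 3 were above the control at 6 h and higher again at 12 h. Cd44 and Lgals3 were under 1 FPKM in the control and entered the comparison only through their 12 h level. Vim, encoding vimentin, was at 23.5, 26.2 and 46.6 FPKM, just under the 2-fold size at 0.99. Gfap, the astrocyte filament gene, was at 96.7, 109 and 134 FPKM, a difference of 0.47, and S1pr3 at 5.62, 7.87 and 10.3 FPKM, a difference of 0.87. The list median was 0.84, or 0.70 relative to all genes, and 0.29 at 6 h. At a floor of 5 FPKM the 12 h median was 0.87 over 5 members.

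Of 11 genes linked to astrocytes after ischaemia 10 stayed under 1 FPKM, and the 1 compared, S100a10, rose from 0.490 through 0.907 to 1.73 FPKM. Other genes often tied to strong astrocyte reactivity stayed low: Lcn2 was at 0.151, 0.346 and 0.400 FPKM and C3 at 0.0278, 0.0499 and 0.108 FPKM. Mature astrocyte genes did not move with the reactive ones. None of 16 compared reached 1.5-fold in either direction, and their median was -0.05, or -0.19 relative to all genes. Glul, encoding glutamine synthetase, was at 106, 106 and 77.7 FPKM, a difference of -0.45. Aldoc and Gja1, an astrocyte aldolase and gap junction protein, differed by -0.46 and -0.49, while the water channel gene Aqp4 differed by -0.01 and the lipid carrier gene Apoe by 0.16. Oligodendrocyte precursor and oligodendrocyte genes had medians of -0.20 and -0.18 over 6 genes each, or -0.34 and -0.32 relative to all genes.

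Some single genes of actin filaments and microtubules rose. Tagln, encoding transgelin, an actin-binding protein, rose from 4.35 through 6.53 to 10.3 FPKM and was the only one of 10 pericyte and smooth muscle markers that reached 1 FPKM in a neuron-labelled library. Acta2, which defines smooth muscle, stood at 0.00209, 0.00679 and 0.0149 FPKM and the collagen gene Col1a1 at 0.0113, 0.0131 and 0.0246 FPKM, against 54.4 and 44.2 FPKM in the astrocyte-labelled control. Tubb6, a tubulin, was at 3.54, 6.58 and 12.1 FPKM, a difference of 1.77. Chosen after their values were seen, Cnn2 (1.22, 2.75 and 3.51 FPKM), Myl9 (0.762, 1.71 and 1.98 FPKM) and Flnc (0.377, 0.733 and 1.93 FPKM) encode calponin, myosin light chain and filamin proteins of actin filaments, and each rose. Tagln2 rose with hardly any difference at 6 h, from 1.06 and 1.11 to 2.12 FPKM.

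**Figure D2:**
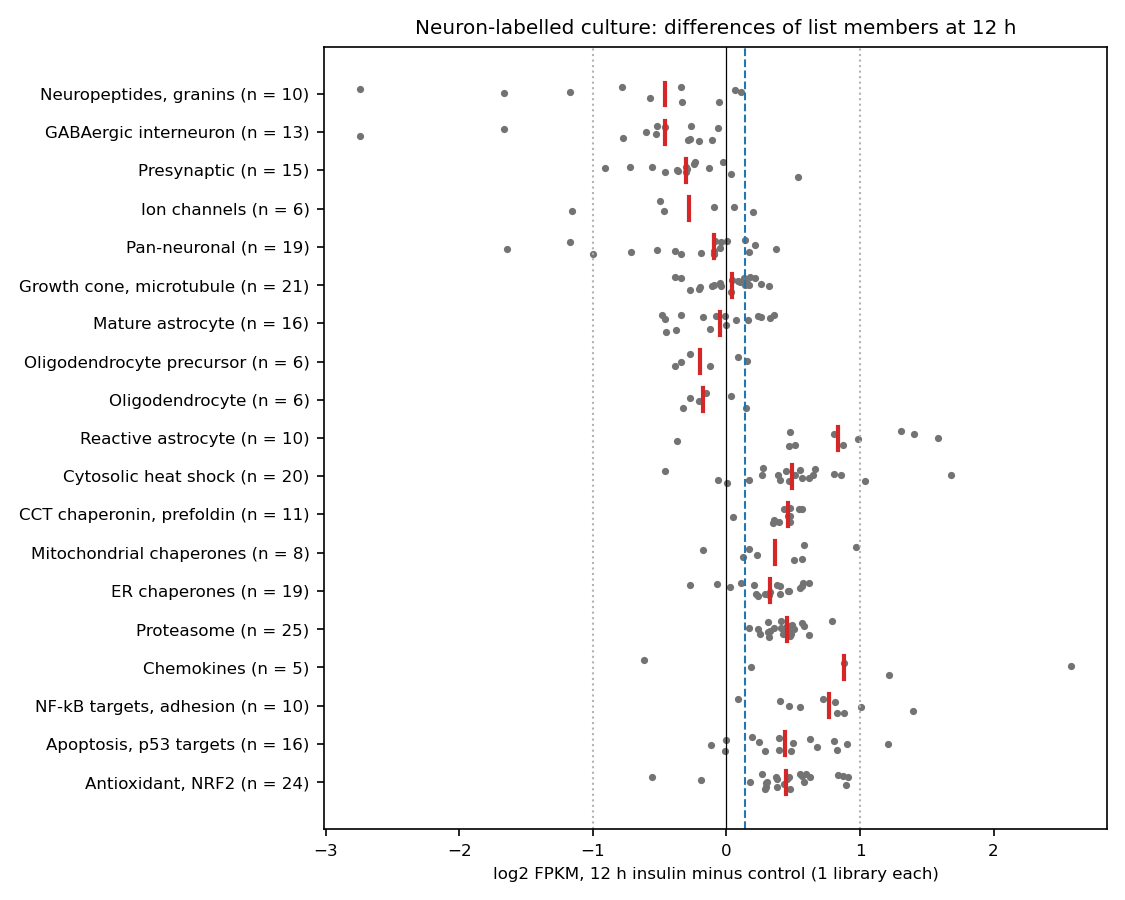
Log2 difference (12 h minus control, horizontal axis) of every compared member of each gene list, 1 point per gene, with the list median as a bar and the all-gene median of 0.14 as a dashed line. Neuropeptide and GABAergic members lie mostly left of the line, and reactive astrocyte, chaperone and chemokine members mostly right of it.

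Chemokine genes were few but included the largest rise among list members. Of 27 listed, 20 stayed under 1 FPKM, 2 were blank in all 3 libraries and 5 were compared. Of these, 2 rose and 1 was at least 1.5-fold lower, beside 2.39% and 4.17% of all genes. Ccl2, which encodes a chemokine that attracts monocytes, was at 1.05, 3.0 and 6.26 FPKM, a difference of 2.58. Cxcl1, encoding a neutrophil chemokine, was at 1.27, 2.90 and 2.95 FPKM, a difference of 1.22. Ccl2 went on increasing between 6 h and 12 h, whereas Cxcl1 had reached its 12 h level by 6 h. Cxcl16 was at 2.39, 2.56 and 4.39 FPKM, a difference of 0.88 that was hardly there at 6 h. Cx3cl1, encoding fractalkine, a chemokine made by neurons, was lower instead, at 7.02, 5.92 and 4.57 FPKM, a difference of -0.62. The list median was 0.88, or 0.74 relative to all genes.

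Of 28 cytokine genes 22 stayed under 1 FPKM, 2 were blank and 4 were compared, of which 2 rose (2.39% of all genes did). Csf1, a growth factor of microglia and macrophages, rose from 0.922 and 1.24 to 2.43 FPKM, and Cntf, a glial neurotrophic cytokine, from 1.27 and 2.04 to 2.71 FPKM; Cntf lay at 0.96 after the all-gene median was subtracted. Gdf15, a stress-induced cytokine, was at 21.0, 29.1 and 35.1 FPKM, a difference of 0.74, and the angiogenic factor gene Vegfa differed by 0.02. Of 29 listed NF-kB targets and adhesion genes 10 were compared, all above 0, beside 66.1% of all genes. Of these, 2 rose (Csf1 and Icam1) and 6 were at least 1.5-fold higher, beside 2.39% and 10.7% of all genes. Their median was 0.77, or 0.63 relative to all genes. Icam1, a leukocyte adhesion molecule, was at 1.25, 1.63 and 2.52 FPKM, a difference of 1.01 that was 0.87 after the all-gene median was subtracted, and Nfkbia, which encodes the NF-kB inhibitor, at 4.65, 5.34 and 8.26 FPKM, a difference of 0.83. Irf1, an interferon-related transcription factor, went from 0.969 and 0.936 to 1.78 FPKM. The list's median was 0.22 at 6 h, so most of its difference came after 6 h. The inducers Il1b and Il6 stayed at or below 0.104 FPKM, and Tnf was blank in the control and at 0.0752 FPKM at 12 h.

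The motif searched for NF-kB was GGGNNTTTCC on both strands, found in 1.51% of the 27457 windows. Among compared chemokine genes 1 of 4 with a window held it, and 2 of 9 in the NF-kB list. Ccl2 and Csf1 had no window, so nothing can be said of their promoters. The windows shown are those of Cxcl1 (chr14:17479384-17479465 on the minus strand, with 2 matches), Nfkbia (chr6:78597082-78597163 on the minus strand) and Nfkb2 (chr1:255108294-255108375 on the plus strand), with the motif in capitals.
Cxcl1: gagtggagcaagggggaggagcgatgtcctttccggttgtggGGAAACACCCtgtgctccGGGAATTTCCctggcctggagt
Nfkbia: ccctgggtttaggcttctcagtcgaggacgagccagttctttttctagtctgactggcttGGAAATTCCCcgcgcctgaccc
Nfkb2: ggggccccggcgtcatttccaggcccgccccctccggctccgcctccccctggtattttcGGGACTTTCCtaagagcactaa
Nfkb2, which encodes an NF-kB subunit, was at 0.576, 0.644 and 1.01 FPKM, a difference of 0.81. Over the 53 compared genes whose window holds the motif the median difference was 0.28, against 0.13 for those without it. Cxcl1, Nfkbia and Nfkb2, members of the lists above, are among the 53. The median of 0.28 therefore partly restates those lists and says nothing separate about the motif.

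Chaperone genes were higher as families, with small differences for most members. Of 30 cytosolic heat-shock genes 20 were compared. Of these, 2 rose, 7 were at least 1.5-fold higher and 18 lay above 0, beside 2.39%, 10.7% and 66.1% of all genes. Their median was 0.49, or 0.35 relative to all genes. Hspa1b, an inducible HSP70, was at 1.72, 4.01 and 5.53 FPKM, a difference of 1.68; its near-identical copy Hspa1a was at 0.392, 0.169 and 0.215 FPKM, and reads can be split between them. Chordc1, an HSP90 partner, was at 0.669, 1.35 and 1.38 FPKM, and Cacybp at 4.48, 8.70 and 8.11 FPKM. For Chordc1 and Cacybp the 6 h library already showed the 12 h level. Hspb1, a small heat-shock protein of glia, was at 3.87, 4.40 and 6.77 FPKM, so its difference of 0.81 came mostly after 6 h. Hsp90ab1, the constitutive HSP90, measured 88.1 FPKM without insulin and 114 after 6 h, with a 12 h difference of 0.45. Hspa8, the constitutive HSP70, was lower at 12 h, at 16.7, 14.7 and 12.1 FPKM, a difference of -0.46.

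Most members of the other chaperone and proteasome lists lay above 0 as well, as did 66.1% of all genes. All 11 compared genes of the CCT chaperonin, which folds actin and tubulin, and its prefoldin partner lay above 0, with a median of 0.46, or 0.32 relative to all genes, and none at 1.5-fold. Cct2 was at 4.11, 6.04 and 6.10 FPKM. Of 8 compared mitochondrial chaperones 7 lay above 0 and 1 was at least 1.5-fold higher, beside 66.1% and 10.7% of all genes. Their median was 0.37, or 0.22 relative to all genes. Hspe1, which entered only through its 12 h level, differed by 0.97. Its partner Hspd1 differed by 0.57, at 8.53, 11.7 and 12.6 FPKM. Of 19 chaperones of the endoplasmic reticulum 17 lay above 0, with a median of 0.33, or 0.18 relative to all genes. Hspa5, the main one, was at 47.9, 72.1 and 66.2 FPKM, highest at 6 h. All 25 compared proteasome genes lay above 0, with a median of 0.45, or 0.31 relative to all genes; Psmc6, a subunit of the proteasome's ATPase ring, was at 1.67, 2.84 and 2.89 FPKM.

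The heat-shock element was searched as GAANNTTC, in 8.34% of windows, and in a longer form of 3 units that contains it, GAANNTTCNNGAA or its reverse, in 0.736%. The short form was in 9 of 18 cytosolic heat-shock genes with a window and the long form in 4, namely Hspa8, Hsph1, Dnaja1 and Chordc1. The long form was also in the windows of Hspd1 and Hspe1, which lie head to head and share it. Hsph1 (chr12:10427272-10427356 on the plus strand), Hspd1 (chr9:64084250-64084287 on the minus strand) and Hspa8 (chr8:50080399-50080483 on the plus strand) are shown with the long form in capitals (2 overlapping matches in Hspd1, and the nearer to the start of 2 in Hspa8), because Hspa8 differed downward and the other two upward.
Hsph1: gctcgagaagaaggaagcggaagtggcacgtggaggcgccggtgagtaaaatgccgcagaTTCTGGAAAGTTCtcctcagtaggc
Hspd1: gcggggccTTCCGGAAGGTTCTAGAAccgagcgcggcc
Hspa8: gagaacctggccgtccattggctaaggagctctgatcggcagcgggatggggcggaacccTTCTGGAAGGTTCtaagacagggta
Hsph1, an HSP110 chaperone, was at 1.89, 2.85 and 2.80 FPKM, a difference of 0.57. The 20 compared genes with the long form had a median difference of 0.44, against 0.13 for those without it. Among these 20 are Hspa8, Hsph1, Dnaja1, Chordc1, Cct4, Hspd1 and Hspe1, members of the chaperone lists above. The median of 0.44 therefore partly restates those lists and says nothing separate about the element. For the short form, held by 197 compared genes, the medians were 0.16 and 0.13.

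Stress-response genes linked to p53 and to NRF2 were higher too. Of 29 apoptosis and p53 genes 16 were compared. Of these, 1 rose and 6 were at least 1.5-fold higher, beside 2.39% and 10.7% of all genes. The median was 0.44, or 0.30 relative to all genes, against 0.07 at 6 h. Mdm2, the p53 ubiquitin ligase, rose from 1.91 and 2.62 to 4.42 FPKM. Ccng1, a cyclin induced by p53, was at 54.5, 72.9 and 102 FPKM, and Cdkn1a, the cell-cycle inhibitor p21, at 6.99, 7.18 and 12.4 FPKM. The death genes Bbc3 and Hrk were level, with differences of -0.01 and -0.12. Of 24 compared antioxidant and NRF2 genes 22 lay above 0 and 6 were at least 1.5-fold higher, beside 66.1% and 10.7% of all genes. Their median was 0.44, or 0.30 relative to all genes. Txnrd1, a thioredoxin reductase, was at 4.09, 6.06 and 7.68 FPKM, Slc7a11, the cystine importer, at 5.25, 8.58 and 9.78 FPKM, and the metallothionein Mt2A at 175, 278 and 313 FPKM.

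**Figure D3:**
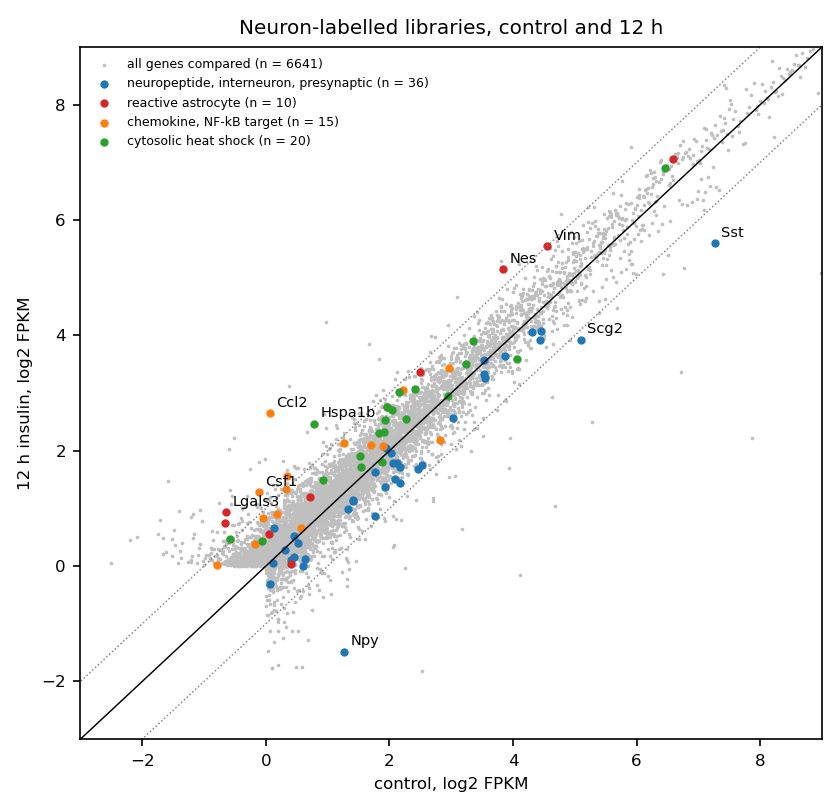
Level of each compared gene in the control (horizontal) and at 12 h (vertical), log2 FPKM, with lines at 2-fold higher and lower and 4 groups of list members in colour; 28 genes outside the axis range of -3 to 9 are not drawn. Sst, Npy and Scg2 lie below the lower line and Ccl2, Csf1 and Nes above the upper one.

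Genes of insulin's own pathway differed little. None of 11 compared insulin and PI3K genes and none of 9 FoxO and fasting genes reached 1.5-fold; the medians were 0.19 and -0.06, or 0.045 and -0.21 relative to all genes. Pik3ip1, a FoxO target that restrains PI3K, was at 1.48, 0.997 and 1.13 FPKM, and Txnip, a brake on glucose uptake, at 14.4, 10.6 and 18.9 FPKM. Both were lowest at 6 h. Of 15 compared cholesterol synthesis genes 4 were at least 1.5-fold higher, beside 10.7% of all genes, with a median of 0.35, or 0.20 relative to all genes. Idi1, an isoprenoid isomerase, was at 3.66, 7.36 and 6.84 FPKM. Immediate-early genes, which respond to activity within minutes, had a median of 0.03 over 15, or -0.11 relative to all genes. Of the 15, 4 were at least 1.5-fold higher, beside 10.7% of all genes, and 7 lay below 0. At a floor of 5 FPKM the median was 0.42 over 8 members. Fos was at 3.30, 3.53 and 2.25 FPKM and Junb at 13.2, 13.3 and 21.5 FPKM. Slc16a1, a lactate and ketone transporter, was at 1.64, 2.38 and 3.25 FPKM, a difference of 0.99.

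RNA-processing and mitochondrial transcripts were higher from 6 h on. All 23 compared splicing factor genes lay above 0 and 8 were at least 1.5-fold higher, beside 66.1% and 10.7% of all genes. Their medians were 0.40 at 12 h (0.26 relative to all genes) and 0.45 at 6 h. Srsf1 was at 24.1, 45.4 and 46.0 FPKM. Of 16 ribosome biogenesis genes 6 were at least 1.5-fold higher, beside 10.7% of all genes. Their median was 0.51, or 0.36 relative to all genes, and Npm1, nucleophosmin, was at 6.31, 10.5 and 11.7 FPKM. All 13 protein-coding genes of the mitochondrial genome lay above 0, but unevenly: COX1 rose, at 1966, 6413 and 4309.8 FPKM, while ND1 differed by 0.07. In the astrocyte-labelled culture the same 13 had a median of -0.36. Cycs, encoding cytochrome c, rose from 8.57 to 29.5 and 25.5 FPKM, and the other 30 compared nuclear respiratory chain genes did not reach 1.5-fold. Cycs has many processed pseudogenes, so its value is uncertain.

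The time at which differences appeared could be read from the 6 h library, which shares the control with the 12 h library, so the values are only set side by side. By a size under 0.3 at 6 h and at least 1 at 12 h, among genes with a symbol at 2 FPKM or more in the control or at 12 h, 2 genes fell late, Thy1 and Scg2, and 4 rose late, Tagln2, Armcx1, Rps15al2 and Stbd1. The neuropeptide, GABAergic, reactive astrocyte, NF-kB and p53 lists had 6 h medians of -0.06, -0.10, 0.29, 0.22 and 0.07, and 12 h medians of -0.46, -0.46, 0.84, 0.77 and 0.44. The cytosolic heat-shock, CCT and splicing lists had 6 h medians of 0.35, 0.36 and 0.45, and 12 h medians of 0.49, 0.46 and 0.40.

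The astrocyte-labelled culture, compared the same way, had 38 of 6221 genes (0.611%) at least 2-fold higher and 57 (0.916%) at least 2-fold lower at 12 h. Of the 75 higher genes with a gene symbol in the neuron-labelled culture, 65 were compared there, 1 was 2-fold higher (Dpm3) and 1 was 2-fold lower (Armcx1), with a median of 0.18 against 0.10 for all genes there. Of the 29 lower ones 15 were compared, 2 were 2-fold lower (Dll4 and Zfp560) and 1 was 2-fold higher (Hist2h2aa3), with a median of -0.40. For the reactive astrocyte, chemokine and cytosolic heat-shock lists the medians there were 0.18 over 12 genes, -0.02 over 4 and 0.15 over 21. Ccl2 was at 4.33 and 5.18 FPKM and Nes at 13.4 and 16.1 FPKM there before and after 12 h. With 1 library per group these differences between the cultures were not tested, and the astrocyte cultures had serum in their medium.

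**Figure D4:**
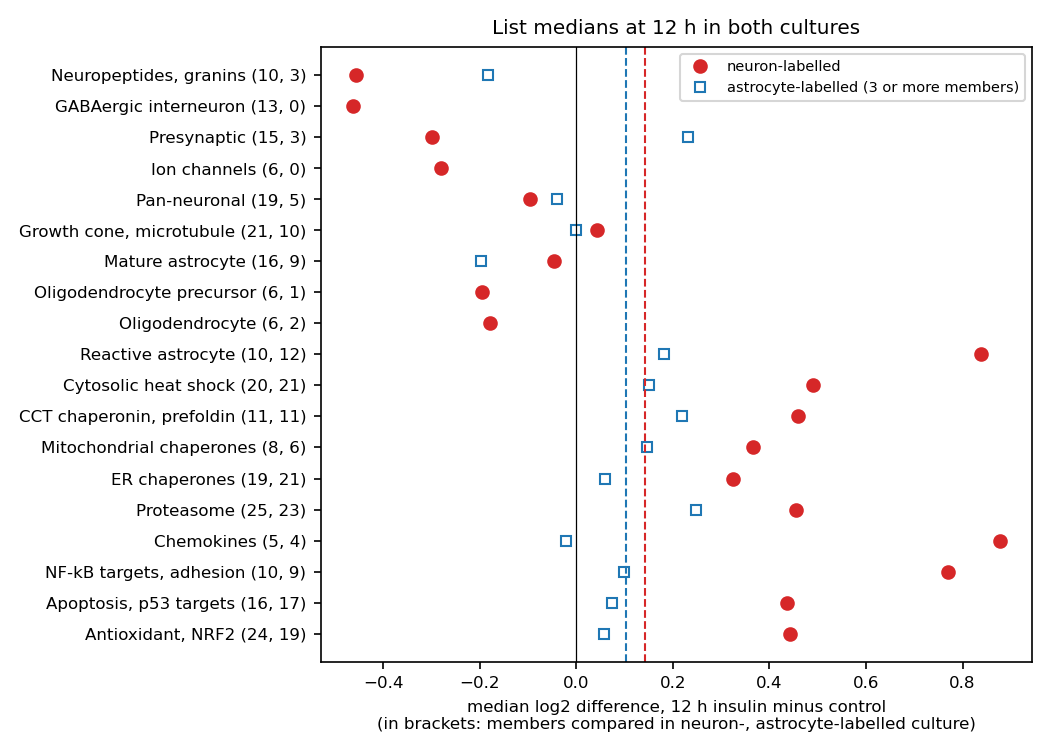
Median log2 difference, 12 h minus control, of each gene list in the neuron-labelled (filled) and astrocyte-labelled (open) cultures, with the 2 all-gene medians, 0.14 and 0.10, as dashed lines. The reactive astrocyte median is 0.84 in the neuron-labelled and 0.18 in the astrocyte-labelled culture.

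The named genes nearest the 2-fold size were Tagln2 (1.06 to 2.12 FPKM) and Hist1h2ak (42.2 to 21.0 FPKM) just past it, and Npm3 (4.75 to 9.49 FPKM) and Nefl (14.7 to 7.33 FPKM) just short of it. Of the 159 higher and 96 lower genes, 84 and 67 were locus identifiers, small RNAs, pseudogenes or numbered copies and are not named. Among the rest, several rises concern small transcripts with near-identical copies, so their values are uncertain: Rnf11l2 was at 3.19, 13.7 and 14.5 FPKM, Ptma at 27.4, 73.9 and 69.1 FPKM and Rps27l at 1.95, 3.47 and 5.26 FPKM. The RNA of RNase MRP, Rmrp, stood at 2938, 8555 and 8566 FPKM, and the mitochondrial ribosomal RNA Rnr2 at 5923, 15085 and 15107 FPKM.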

How the data were processed

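RNA of primary rat cultures was measured by stranded total RNA sequencing after ribosomal RNA depletion, per the labels' protocols, in 6 libraries, 1 per group. Values were deposited as 1 table, in log2 FPKM, that the authors quantile-normalised over the 6 libraries, with 37185 rows and 37183 symbols. Named tools, per the submitters' processing notes, were Partek 6.5 and bcl2fastq 2.17.1.14, with the build Rnor 6.0; aligner, annotation and strand use in counting were not given in the sources used here. Depth is unknown, and no counting interval is given. Differences were taken on the deposited log2 scale with no pseudocount, for genes measured in both libraries and reaching 1 FPKM in either, and called at 2-fold; no test was made. The script was tested on simulated data. The 51 gene lists (1079 symbols, 44 not found, 13 of them aliases of mitochondrial symbols) and all members were chosen with earlier results of these data known. Genes named are the 15 largest of each direction at 5 FPKM or more, up to 10 late ones of each direction, list members at 2-fold, the 4 largest of each list and all markers; some single genes are not reported here, and others are said to be chosen after their values were seen, or serve as contrasts within a list. Promoter windows are from RefSeq (GRCr8), a different assembly from that of the values; 3967 compared genes matched by symbol. Alternatives changed the floor, the log scale, the centring, the rank matching and the size called. Python 3.11.15, pandas 2.3.3, numpy 2.4.6 and matplotlib 3.10.9 were used.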

Additional observations from a re-analysis of the deposited data

Results flagged for a closer look

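2-fold differences in opposite directions in the cultures were found for 2 genes, and the difference between cultures was not tested. Armcx1, a mitochondrial protein gene, differed by 1.08 in the neuron-labelled culture and by -2.19 in the astrocyte-labelled one. Hist2h2aa3, a histone gene with near-identical copies, differed by -1.54 and 1.54. The transfer RNA symbols Trnaa-agc_8, Trnaq-cug_9 and Trne were blank in the neuron-labelled control and stood at 1.89, 1.30 and 2.39 FPKM at 12 h, outside the comparison for lack of a control value. In the opposite direction, 7 small RNA symbols at 1 FPKM or more in the control were blank at 12 h.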

How the results depend on the processing

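No paired analysis was possible because each group has 1 library. The counts of higher and lower genes were 3252 and 947 with no floor, 39 and 36 with a floor of 5 FPKM, 35 and 32 on log2(FPKM + 1), 711 and 277 at 1.5-fold, and 75 and 29 without locus, small RNA, pseudogene and numbered rows. No floor admits genes of far lower level, where the unknown depth limits precision most. Subtracting the median of all genes compared, subtracting that of genes at 5 FPKM or more, and matching ranks again over shared symbols gave, in that order: pan-neuronal medians of -0.24, -0.24 and -0.21; mature astrocyte -0.19, -0.19 and -0.16; growth cone -0.10, -0.10 and -0.072; neuronal transcription factors -0.082, -0.084 and -0.077; immediate-early -0.11, -0.11 and -0.13; beta-oxidation -0.12, -0.13 and -0.13; and nuclear respiratory chain -0.070, -0.072 and -0.024. The last 5 reversed, as did the matrix list under both subtractions (-0.0016 and -0.0035). Rank matching gave -0.46 for presynaptic genes and 0.085 over 7 mitochondrial chaperones. With no floor the all-gene median was itself 0.28, against 0.14 in the main comparison. The list medians were then -0.23 for GABAergic, -0.14 for presynaptic and -0.24 for neuropeptide genes. The sign reversed for receptors (0.29), scaffolds (0.068), ion channels (0.076) and oligodendrocytes (0.037). Scaffolds, ion channels and oligodendrocytes still lay below the all-gene median of 0.28, and receptors lay close to it. With the floor of 5 FPKM the list medians were -1.17 for neuropeptides, -0.15 for mature astrocytes, 0.82 for p53 genes and -0.081, reversed, for fatty acid synthesis. On log2(FPKM + 1) they were -0.29 for GABAergic and 0.43 for NF-kB genes. The cause of these shifts was not tested. None of the 44 named genes at 2-fold reversed under the 6 alternatives run on single genes, but 9 lost the 2-fold size under each subtraction, 7 of 42 under rank matching and 22 on log2(FPKM + 1), and 18 were not compared at the floor of 5 FPKM.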
